A study of Homo sapiens with 6 samples.

Results

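TP53INP1 and genes known to respond to the tumour suppressor p53 were followed in RNA recovered with AGO2, the Argonaute protein through which microRNAs bind and silence messenger RNAs. The set was TP53INP1, TP53INP2, SESN1, SESN2, MDM2, ZMAT3, GDF15, CDKN1A, BTG2 and TP63. It was chosen by gene symbol, and 8 of the 10 had a probe set with a single gene symbol, out of 18417 genes tested. BTG2 and TP63 were not analysed here. Each of the 8 had 1 probe set, and all of them lay above the level of most olfactory receptor genes, which served as a mark of background (6.04, the 95th percentile of 341 such genes, log2).

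The samples were cultures of PC3, a prostate cancer line that grows without androgen. Of these, 3 had been transfected with a mimic of miR-205 and 3 with a negative control mimic, and the series describes each set of 3 as biological triplicates. RNA from all 6 samples was recovered with the same anti-AGO2 antibody and read on an Affymetrix gene array. Input RNA was not analysed here, so a change in binding to AGO2 and a change in the amount of a transcript cannot be told apart. Nor can the mimic itself be read from these values. Values are RMA signals on the log2 scale, where a difference of 1 is a doubling. Medians over all probe sets were 6.83 to 6.85 on the miR-205 arrays and 6.82 to 6.86 on the control arrays.

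p53 is a transcription factor that is stabilised by DNA damage and other stress and switches on genes for cell cycle arrest, repair, apoptosis and autophagy. Many of its target genes have other activators as well, such as ATF4 in the integrated stress response, AP-1 or the relatives p63 and p73. The activity of p53 was not measured here, so the levels of its target genes are not given as a readout of it. TP53INP1 encodes a small stress protein that binds the kinases HIPK2 and PRKCD, promotes phosphorylation of p53 and takes part in autophagy. It has been described as a target of several microRNAs, among them miR-205.

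The microRNA added to the cells is shown because its seed decides which transcripts it pairs with. Capitals mark the seed, bases 2 to 8, in the human mature sequence of RefSeq (GRCh38.p14, chr1:209432166-209432187, plus strand, 22 bases).
hsa-miR-205-5p: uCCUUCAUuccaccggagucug
No other one of the 2370 human mature microRNAs in that RefSeq table had the same bases 2 to 8. A transcript pairs with the whole seed where it holds AUGAAGG. No transcript sequence was searched for it here.

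With the miR-205 mimic, TP53INP1 was the member that changed most, and it fell. SESN1 and, by a narrow margin, MDM2 also fell, while GDF15 and ZMAT3 rose. TP53INP2, SESN2 and CDKN1A did not pass the test. By limma with Benjamini-Hochberg adjustment over all 18417 genes, 5 of the 8 passed an adjusted p of 0.05, with 3 lower and 2 higher. Of all genes 26.6% passed, 14.0% lower and 12.6% higher. Every miR-205 array lay on the same side of every control array for 6 of the 8 members, against 42.2% of all genes. Under a stricter rule, which asked for 1.5-fold and an unadjusted p below 0.01, TP53INP1 was the only call among the 8, and 4.69% of all genes passed. The median log2 difference of the 8 was -0.06 and that of all genes -0.02. The median size of the difference, whatever its sign, was 0.19 for the 8 and 0.12 for all genes.

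**Figure D1:**
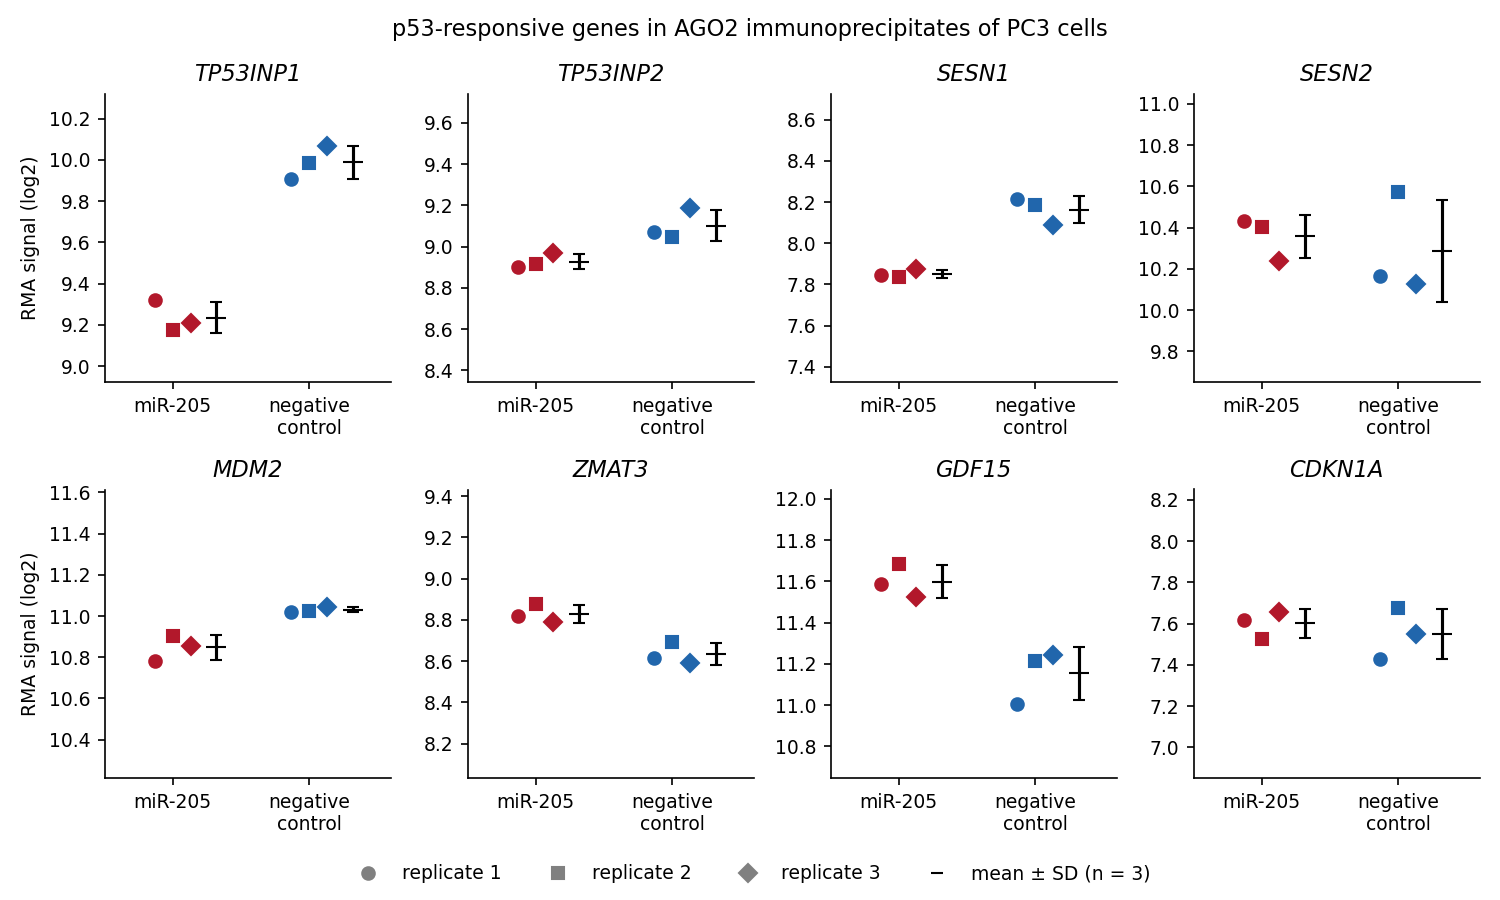
RMA signal (log2) of the 8 measured members on each array, miR-205 left and negative control right, with mean ± SD (n = 3 each) and the same height of scale in every panel. TP53INP1 sits at 9.17 to 9.32 with miR-205 and at 9.91 to 10.07 with the control, while SESN2 and CDKN1A overlap between the groups.

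TP53INP1 stood at 9.32, 9.17 and 9.21 on the miR-205 arrays, against 9.91, 9.99 and 10.07 on the control arrays. The groups were separated by 0.59, far more than the SD within either group (0.08 with miR-205 and 0.08 with the control). The log2 difference was -0.75 ± 0.07 (SE, n = 3 each, 95% interval -0.91 to -0.60, adjusted p = 0.000149), a signal 0.593 times that of the control. It was the 197th most negative difference and had the 270th smallest p of 18417 genes. Leaving out any 1 array gave -0.80 to -0.71 with adjusted p-values of 0.000258 to 0.0014.

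TP53INP2, the paralog of TP53INP1, encodes an autophagy protein that binds the ATG8 family. It stood at 8.90, 8.91 and 8.97 with miR-205, against 9.07, 9.05 and 9.19 with the control. The miR-205 arrays lay below the control arrays by 0.08. The log2 difference was -0.17 ± 0.06 (95% interval -0.32 to -0.03, adjusted p = 0.0721). Taken per array, the signal of TP53INP1 minus that of TP53INP2 was 0.31 ± 0.10 with miR-205 and 0.89 ± 0.05 with the control (SD, n = 3 each). The difference between their changes was -0.58. Its two-sided exact permutation p was 0.1, the smallest that 3 against 3 arrays can give (0.2 after adjustment over the 2 paralog pairs compared).

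The kinases that TP53INP1 binds were measured as well. HIPK2 stood at 12.28, 12.35 and 12.29 with miR-205, against 12.44, 12.41 and 12.55 with the control, with a log2 difference of -0.16 (adjusted p = 0.0963). PRKCD had a log2 difference of -0.16 as well (adjusted p = 0.079). Neither passed the test.

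The sestrins SESN1 and SESN2 are p53-responsive proteins that bind the GATOR2 complex when leucine is scarce and hold back the growth kinase complex mTORC1. SESN1 stood at 7.85, 7.84 and 7.87 with miR-205, against 8.22, 8.19 and 8.09 with the control, with no overlap. It fell by 0.31 ± 0.06 on the log2 scale (n = 3 each, adjusted p = 0.00562), to 0.806 times the control. It passed with any 1 array left out (adjusted p = 0.00867 to 0.0282).

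SESN2, which ATF4 also induces, stood at 10.43, 10.40 and 10.24 with miR-205, against 10.16, 10.57 and 10.13 with the control. The highest of the 6 arrays was negative control replicate 2, so the groups overlapped. The log2 difference was 0.07 ± 0.12 (95% interval -0.20 to 0.34, adjusted p = 0.72). Without that array it was 0.21 (adjusted p = 0.0686), and without negative control replicate 3 it was -0.01. The changes of SESN1 and SESN2 differed by -0.38, with a two-sided exact permutation p of 0.2 (0.2 after adjustment over the 2 paralog pairs). The third sestrin, SESN3, was dim, at 5.33 to 5.74 with miR-205 and 5.45 to 5.77 with the control, and did not pass (adjusted p = 0.515).

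MDM2 encodes the ubiquitin ligase that keeps p53 low and is itself induced by p53. It stood at 10.78, 10.90 and 10.86 with miR-205, against 11.02, 11.03 and 11.04 with the control. The groups were 0.12 apart. The log2 difference was -0.18 ± 0.06 (95% interval -0.32 to -0.05, adjusted p = 0.0488). Leaving out any 1 of the 6 arrays ended it (adjusted p = 0.0678 to 0.163, log2 difference -0.21 to -0.15).

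ZMAT3 encodes a zinc finger protein that binds RNA. It stood at 8.82, 8.88 and 8.79 with miR-205, against 8.62, 8.69 and 8.59 with the control. It rose by 0.20 ± 0.06 (n = 3 each, adjusted p = 0.0412), to 1.15 times the control. It passed without negative control replicate 2 (0.23, adjusted p = 0.0286), but without any 1 of the other 5 arrays it did not (adjusted p up to 0.15).

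GDF15 encodes a secreted cytokine of the TGF-beta superfamily that signals through the brainstem receptor GFRAL and responds to p53 and to the integrated stress response. It stood at 11.59, 11.68 and 11.52 with miR-205, against 11.01, 11.21 and 11.24 with the control. The groups were 0.28 apart. It rose by 0.45 ± 0.08 (n = 3 each, adjusted p = 0.00402), to 1.36 times the control. It passed with any 1 array left out (0.37 to 0.49, adjusted p = 0.00453 to 0.0208).

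CDKN1A encodes p21, the inhibitor of cyclin-dependent kinases through which p53 halts the cell cycle. It stood at 7.62, 7.52 and 7.66 with miR-205, against 7.43, 7.67 and 7.55 with the control, so that the groups overlapped. The log2 difference was 0.05 ± 0.08 (95% interval -0.12 to 0.23, adjusted p = 0.683). It was 0.11 without negative control replicate 2 and -0.01 without negative control replicate 1.

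**Figure D2:**
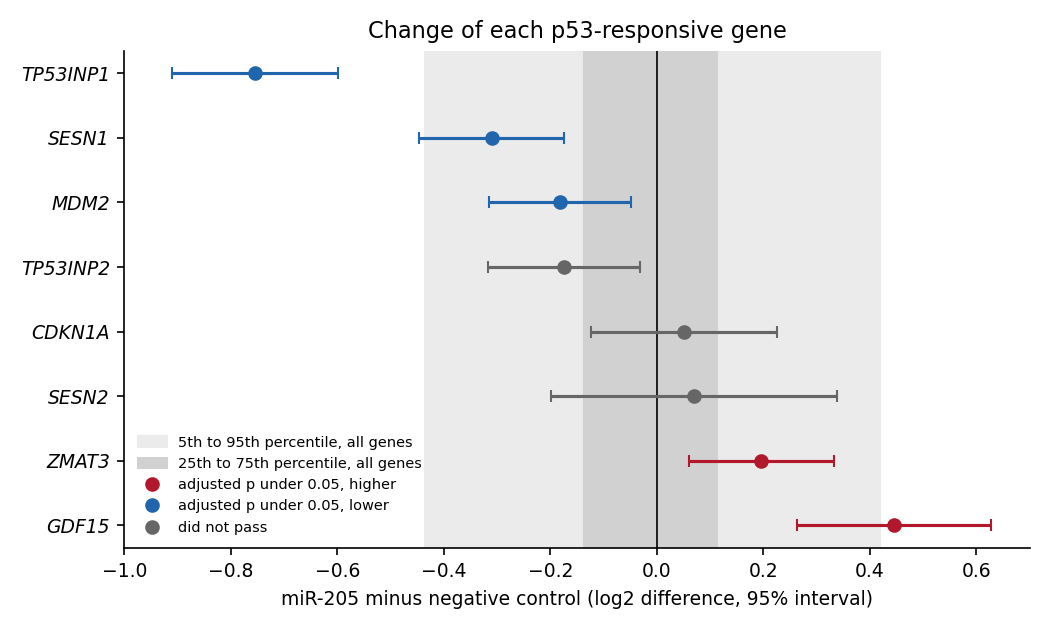
Log2 difference (miR-205 minus negative control) of the 8 measured members with its 95% interval from limma (n = 3 each), over grey bands for the middle part of all 18417 genes. TP53INP1 lies below the 5th percentile of all genes (-0.44) and GDF15 just above the 95th (0.42), with the other 6 between these percentiles.

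Negative control replicate 2 stood apart from the other control arrays. The mean of 20 genes of the immediate-early and NF-kappa-B responses was 10.8 to 10.9 on the miR-205 arrays, 10.4 on that control array, and 8.50 and 8.54 on the other control arrays. This list was drawn up with that array's values known. Its genes, among them EGR1 (2.40), NR4A2 (2.60), NR4A1 (2.59) and FOS (0.65), were higher with miR-205 in 14 of 20 cases and lower in 0. That is 70% higher, against 12.6% of all genes. Without that array 18 of the 20 were higher, and without any 1 other array 7. Of all 18417 genes, 2668 were higher without that array and 1588 to 1711 without any 1 other array. Among the members, SESN2 lay 0.43 and CDKN1A 0.19 above the mean of the other control arrays there. TP53INP1 lay at -0.002, MDM2 at -0.005, SESN1 at 0.03, TP53INP2 at -0.08, GDF15 at 0.09 and ZMAT3 at 0.09. The change of TP53INP1 without that array was -0.76, close to the value with all arrays.

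The other p53-responsive genes did not move one way. Of 41 measured p53-responsive genes outside the set, 8 rose, 8 fell and 25 did not pass. That is 39% called, against 26.6% of all genes, with a median log2 difference of 0.04. TNFRSF10B, a death receptor for TRAIL, fell most clearly. It stood at 9.34, 9.36 and 9.24 with miR-205, against 10.13, 10.27 and 10.30 with the control, a log2 difference of -0.92 ± 0.07 (adjusted p = 6.68e-05).

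SFN, TP53I3 and KITLG rose. SFN, which encodes stratifin, a protein that arrests the cell cycle and marks stratified epithelium, stood at 10.91, 10.91 and 11.03 with miR-205, against 10.27, 10.32 and 10.25 with the control (log2 difference 0.67, adjusted p = 0.000149). TP53I3, a quinone oxidoreductase gene, was at 8.76, 8.75 and 8.59 with miR-205, against 8.04, 8.13 and 8.05 with the control (0.62, adjusted p = 0.000362). KITLG, which encodes stem cell factor, rose by 0.65 (adjusted p = 0.000623). These genes and TNFRSF10B were named as the passing genes of smallest p in the list, a choice that favours groups without overlap. The groups were apart in each of the 4, in 20 of the 41 listed genes and in 42.2% of all genes. Each of the 4 passed with any 1 array left out.

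A few further genes of this list were chosen after their values were seen, and give no measure of any function as a group. PMAIP1, a BH3-only protein gene also called NOXA, rose by 0.71 (adjusted p = 0.00268) and the death receptor gene FAS rose by 0.48 (adjusted p = 0.00294). APAF1, the core of the apoptosome, fell by 0.68 (adjusted p = 0.00196). BAX (0.03, adjusted p = 0.736) and BBC3 (0.03, adjusted p = 0.866), which encodes PUMA, did not pass. The phosphatase gene PPM1D, which acts against p53 signalling, fell by 0.57 (adjusted p = 0.00266), and DDB2, a DNA repair gene, rose by 0.53 (adjusted p = 0.00302).

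Several calls in this list turned on negative control replicate 2. Without it 11 genes rose and 8 fell, against 8 and 8 with all arrays, and 30.1% of all genes passed. PLK2, a kinase gene, was at 11.83, 12.04 and 12.01 with miR-205, against 10.23, 11.92 and 10.37 with the control, with that array the second of the control values. Its log2 difference was 1.12 with all arrays (adjusted p = 0.0566) and 1.66 without that one (adjusted p = 1.11e-05). GADD45A (0.61 and 0.94), LIF (0.75 and 1.13) and PLK3 (0.53 and 0.85) did not pass with all arrays either, and passed without it. DDIT4, an mTORC1 inhibitor induced by stress, passed with all arrays (-0.86, adjusted p = 0.0388) and without that array (-1.22, adjusted p = 7.82e-05). It did not pass without any 1 of the other 5 (adjusted p up to 0.136).

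Among genes that regulate p53, the largest falls were in TP53BP2, DYRK2 and MDM4. Of 21 measured regulators and relatives, 7 fell, 2 rose and 12 did not pass, which is 42.9% called, with a median log2 difference of -0.16. TP73, a relative of TP63, did not pass (-0.01, adjusted p = 0.915). TP53BP2 had the largest fall. It encodes ASPP2, which binds p53 and steers it to apoptosis genes and also acts in cell polarity. It stood at 8.23, 8.09 and 8.18 with miR-205, against 9.40, 9.33 and 9.52 with the control, a log2 difference of -1.25 ± 0.07 (adjusted p = 2.3e-05).

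CHEK2, DYRK2 and MDM4 followed by size of p. CHEK2, a DNA damage kinase gene, rose, at 8.01, 7.99 and 8.03 with miR-205, against 7.37, 7.23 and 7.03 with the control (0.80, adjusted p = 0.000333). DYRK2, a kinase gene whose product phosphorylates p53, fell by 0.55 (adjusted p = 0.000624). MDM4, the partner of MDM2 in holding p53 in check, stood at 8.84, 8.86 and 8.81 with miR-205, against 9.47, 9.29 and 9.21 with the control. It fell by 0.49 ± 0.08 (n = 3 each, adjusted p = 0.00204), and passed with any 1 array left out (adjusted p up to 0.0113). The second gene that rose, ATM, a DNA damage kinase gene (0.25, adjusted p = 0.0371), passed in 1 of the 6 fits that omitted an array, the one without negative control replicate 3.

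**Figure D3:**
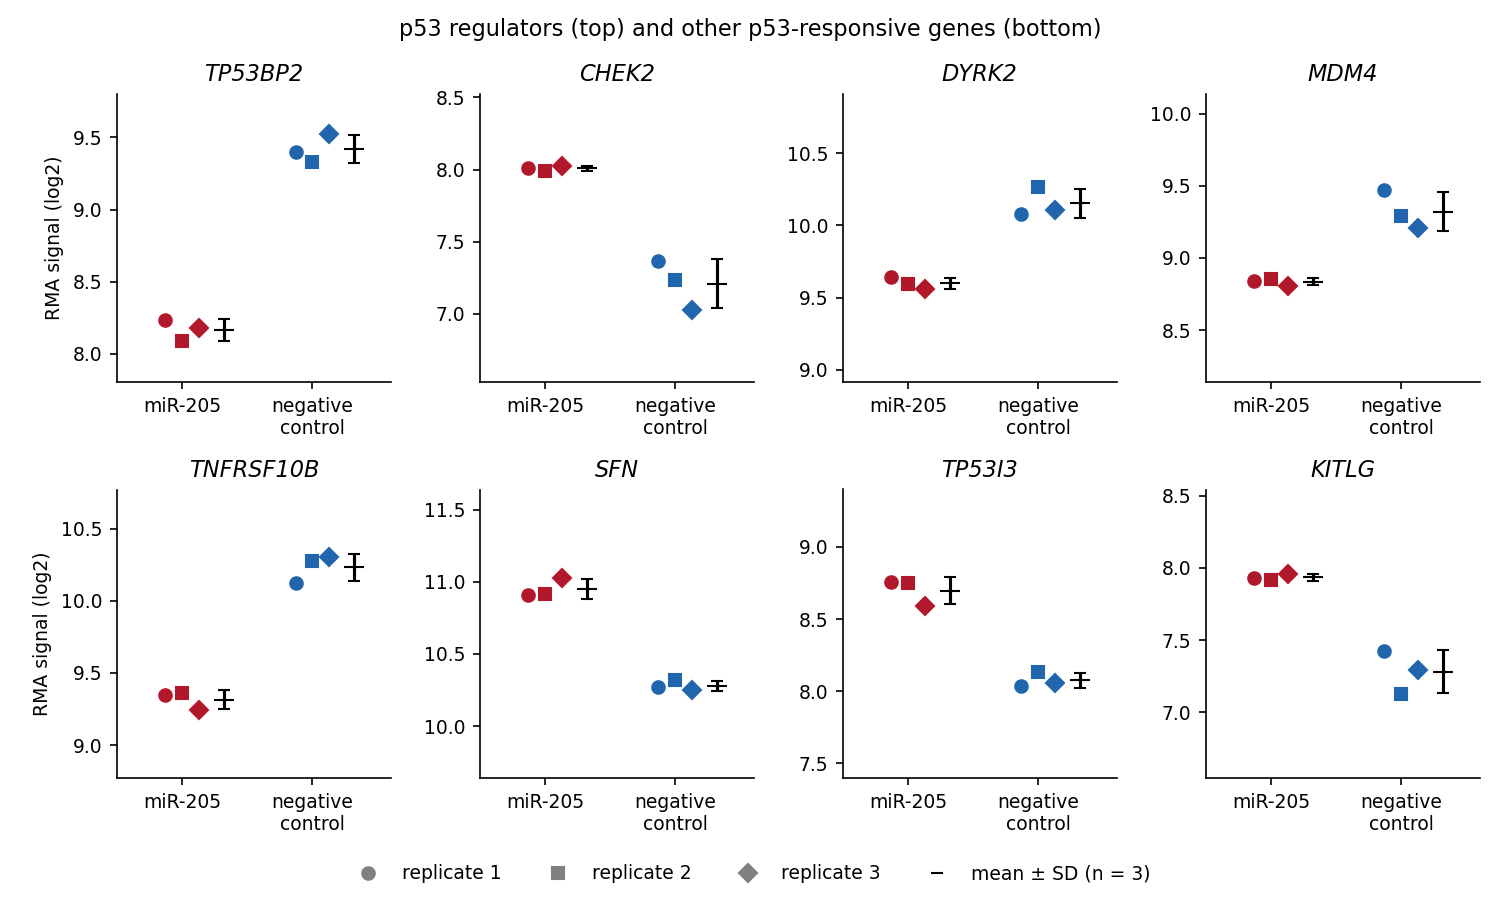
RMA signal (log2) on each array for 4 p53 regulators (top) and 4 other p53-responsive genes (bottom), miR-205 left and negative control right, with mean ± SD (n = 3 each). TP53BP2, DYRK2, MDM4 and TNFRSF10B lie lower with miR-205, and CHEK2, SFN, TP53I3 and KITLG lie higher, with no overlap in any of the 8. The 8 were the passing genes of smallest p in their lists, a choice that favours groups without overlap.

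Of 17 genes of amino-acid sensing upstream of mTORC1, the machinery on which the sestrins act, 5 rose and 2 fell (3 to 6 and 2 to 4 when 1 array was omitted), with a median of 0.08. That is 29.4% higher and 11.8% lower, against 12.6% higher and 14.0% lower of all genes. NPRL2, a subunit of GATOR1, which the sestrins help to keep active, rose by 0.42 (adjusted p = 0.00243), and the RAG GTPase gene RRAGB rose by 0.66 (adjusted p = 0.00254). RRAGC, another RAG GTPase gene, fell by 0.32 (adjusted p = 0.00328), and RPTOR, the scaffold of mTORC1, fell by 0.43 (adjusted p = 0.00366).

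Of 27 autophagy genes, the pathway in which TP53INP1 and TP53INP2 act, 5 fell and 2 rose. That is 25.9% called, close to the 26.6% of all genes. When 1 array was omitted, 3 to 4 fell and 1 to 3 rose. ATG16L1, part of the enzyme that attaches ATG8 proteins to membranes, stood at 8.55, 8.56 and 8.43 with miR-205, against 9.30, 9.15 and 9.33 with the control (-0.75, adjusted p = 0.00019). ATG9A, a lipid scramblase gene, fell by 0.38, and RB1CC1, a subunit of the ULK1 complex, by 0.29. ATG7, the activating enzyme for ATG8 proteins, rose by 0.36. Among the ATG8 genes and receptors, GABARAP (0.17, adjusted p = 0.0886), MAP1LC3B (0.10, adjusted p = 0.354) and SQSTM1 (-0.01, adjusted p = 0.916) did not pass.

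Other genes named as inhibitors of cyclin-dependent kinases, and relatives of BTG2, were measured as well. Of 6 such inhibitor genes 50% were called, against 26.6% of all genes. CDKN2A (-0.30, adjusted p = 0.00657) and CDKN1C (-0.26, adjusted p = 0.0143) fell and CDKN3 rose (0.34, adjusted p = 0.039). CDKN2A was also counted among the p53 regulators. CDKN1C did not pass without miR-205 replicate 3, and CDKN3 passed only without negative control replicate 2. Of 15 BTG, TOB and CCR4-NOT genes, the deadenylation factors that include the family of BTG2, 2 rose and 2 fell. That is 26.7% called, about the share of all genes (26.6%). CNOT10 rose by 0.51 and CNOT6L by 0.42, and CNOT1, the scaffold of the complex, fell by 0.37. TOB2 fell by 0.85 (adjusted p = 0.0474), but its miR-205 arrays (8.56 to 8.87) overlapped with negative control replicate 2 (8.79). Without any 1 of the other 5 arrays it did not pass.

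GDF15 and SESN2 are also targets of the integrated stress response, of which 19 genes were measured. Of these 4 passed, 2 in each direction, which is 21.1% against 26.6% of all genes. VLDLR, a lipoprotein receptor gene, fell by 1.27 (adjusted p = 2.3e-05), and CHAC1, which degrades glutathione, by 0.33 (adjusted p = 0.0379). CEBPG, a partner of ATF4, rose by 0.39 (adjusted p = 0.0085), and ATF3 rose by 1.30 (adjusted p = 0.0111). ATF3 stood at 8.14, 8.07 and 8.04 with miR-205, against 6.60, 7.58 and 6.16 with the control, the 7.58 being negative control replicate 2. A trend and robust variance ended its call (adjusted p = 0.0773). CHAC1 passed without that array or without miR-205 replicate 1, and did not pass without any 1 of the other 4. ATF4 itself (-0.07, adjusted p = 0.483) and DDIT3 (0.21, adjusted p = 0.172) did not pass.

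TP63, a basal epithelial relative of p53, was not analysed here, but 11 genes of basal epithelium or described as p63 targets were. Of these 3 rose and 1 fell, or 27.3% higher and 9.09% lower, against 12.6% higher and 14.0% lower of all genes. The integrin gene ITGB4 rose by 0.77 (adjusted p = 0.000416), S100A2 by 0.32 (adjusted p = 0.00474) and the keratin gene KRT15 by 0.32 (adjusted p = 0.0377), which passed only without negative control replicate 2 when 1 array was left out. DST, which encodes dystonin, fell by 0.31 (adjusted p = 0.00945).

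The luminal prostate factor HOXB13 was well above background and fell by 0.73 (adjusted p = 0.000592). The signal of KLK3, which encodes prostate-specific antigen, was 6.01 to 6.11 with miR-205 and 5.98 to 6.18 with the control, close to the background mark. Of 5 luminal markers 1 rose (ACP3, 0.31, dim) and 1 fell, of 10 fibroblast markers 1 rose (LUM, 0.36, dim) and 1 fell (PDGFRA, -0.31), and of 8 leukocyte markers 0 passed (1 at an unadjusted p under 0.05). LUM passed with only 1 of the 6 arrays left out in turn, and PDGFRA with 2. The summed log2 signal of the fibroblast list was 57.7 to 58.7 with miR-205 and 57.5 to 58.3 with the control. That of the leukocyte list was 41.1 to 41.5 with miR-205 and 41.3 to 42.0 with the control.

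**Figure D4:**
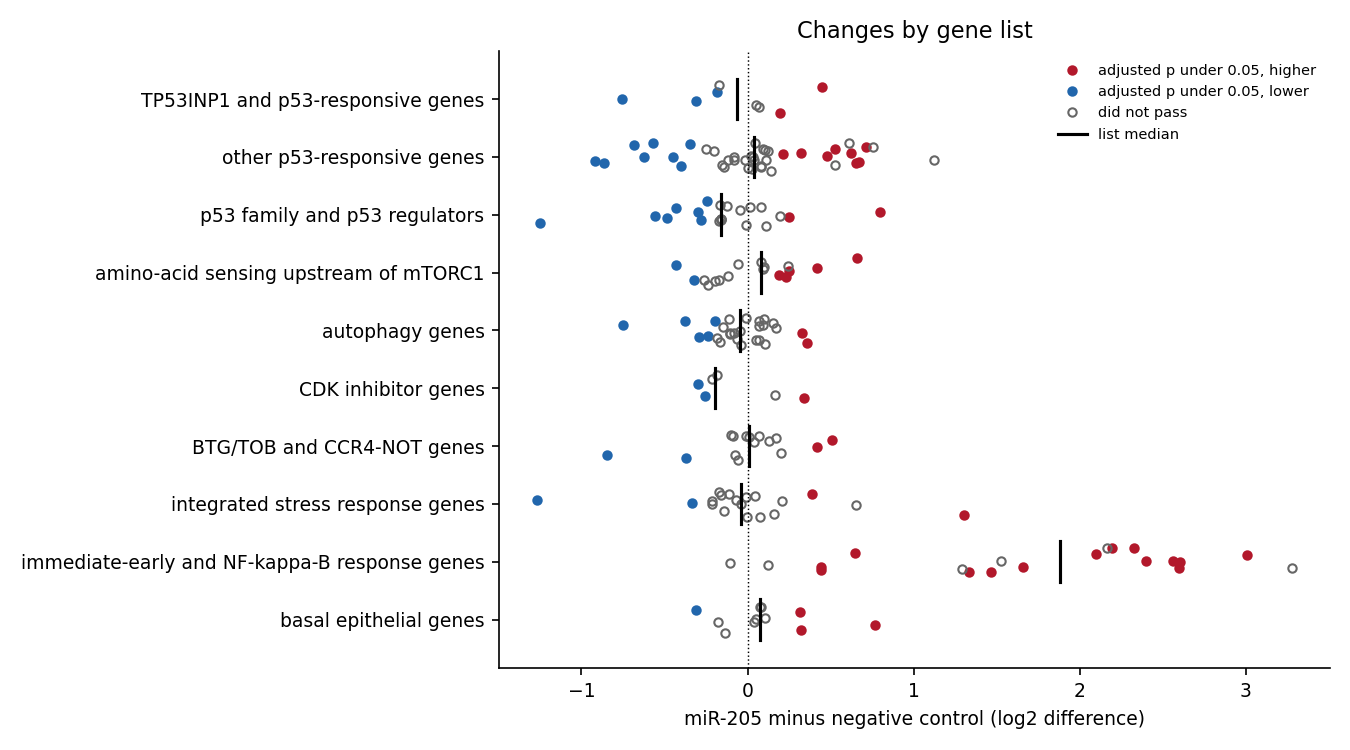
Log2 difference (miR-205 minus negative control) of every measured gene in the set and in 9 related lists, 1 point per gene, filled where the adjusted p was under 0.05, with a bar at each list's median. TP53INP1 is the lowest point of the top row at -0.75, and the immediate-early list has a median of 1.88 while the other lists have medians from -0.20 to 0.08.

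The genes most like TP53INP1 over the 6 arrays were CDK19, GEMIN4, KCNMA1, VPS54 and ARHGAP21, taken by Pearson's r among 13027 genes above background, with uncharacterised loci and small or non-coding RNA genes left out by their symbols. Their r with TP53INP1 was 0.998 or more over 6 arrays, which fall into 2 groups, so r mostly reads the step between the groups. Of the genes compared, 1162 had r above 0.95. CDK19, a kinase gene of the Mediator complex, had the largest step of the 5, at 8.32, 8.07 and 8.16 with miR-205, against 9.31, 9.39 and 9.54 with the control (-1.23). VPS54, of the GARP tethering complex, had -0.70, and GEMIN4, of the SMN complex, had -0.51. KCNMA1, a potassium channel gene, had -0.35, and ARHGAP21, a GTPase-activating protein gene, had -0.38.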

How the data were processed

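RNA bound by AGO2 was measured on 6 Affymetrix arrays, 3 per group. The authors deposited log2 signals. Per the submitters' processing notes these came from RMA and Affymetrix Expression Console version 1.1.2, and they were taken here as they stood. The probe annotation given for the platform listed 21214 of 33297 probe sets, of which 19460 carried 1 symbol. For the 769 genes with several probe sets, the one with the highest mean was taken. Groups came from the sample titles.

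The 18417 genes entered a two-sided limma test (version 3.58.1, R 4.3.3) with a single term for the mimic, and p-values were adjusted by Benjamini-Hochberg. The fit was run on simulated data with known changes and noise drawn independently for each gene. Such data hold no shift shared by many genes, like that of negative control replicate 2. Paralog pairs were compared by an exact permutation test. The number of arrays limits the precision. Members and lists were chosen with earlier results of these data known. Named were all members, MDM4, SESN3, the passing genes of smallest p in each list (at most 4), and the 5 genes most like TP53INP1, except where the text says otherwise. A further gene of that rule is not reported here. ACP3 stood in the lists under an older symbol. Alternatives covered normalization, dim genes, probe sets, variance, array weights, a replicate block, a fold rule and leaving out each array.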

Additional observations from a re-analysis of the deposited data

How the results depend on the processing

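Only 3 arrays per group were at hand, so changes under about 0.2 on the log2 scale lay near the limit of what the fit called. The replicate numbers are not stated to mark pairs: deviations of same-numbered arrays correlated at 0.06, 0.09 and 0.01, and 5 of the 6 arrays correlated best with their own number. With the replicate number as a block, MDM2 (-0.18, adjusted p = 0.0778) and ZMAT3 (0.20, adjusted p = 0.0562) no longer passed, which left 1 higher member, and TP53INP1 kept an adjusted p of 0.00113. TP53INP1, SESN1 and GDF15 passed under each normalization, filter, variance model, weighting and block tried.

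Centring arrays on their medians ended the calls of MDM2 (-0.19, adjusted p = 0.0581) and ZMAT3 (0.19, adjusted p = 0.0556), as did testing all probe sets (MDM2 -0.18, adjusted p = 0.0847, and ZMAT3 0.20, adjusted p = 0.0764), each leaving 1 higher member. Array weights ended that of MDM2 (-0.18, adjusted p = 0.0566) and made TP53INP2 pass (-0.19, adjusted p = 0.0469), and TP53INP2 also passed with dim genes left out (-0.17, adjusted p = 0.0451). Requiring an unadjusted p under 0.01 and 1.5-fold, met by 4.69% of all genes (403 higher, 460 lower), left 1 lower member, TP53INP1, and 0 higher. MDM2 (-0.18), SESN1 (-0.31), GDF15 (0.45) and ZMAT3 (0.20) did not reach that fold.

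Under that rule the lists held, higher and lower, 4 and 4 other p53-responsive genes, 1 and 1 p53 regulators, 1 and 0 amino-acid sensing genes, 0 and 1 autophagy genes, 0 and 0 other CDK inhibitors, 0 and 0 BTG, TOB and CCR4-NOT genes, 1 and 1 stress response genes, 9 higher immediate-early genes, 1 and 0 basal genes, 0 higher luminal markers, and 0 and 0 fibroblast markers. With all probe sets tested there were 1 higher p53 regulator, 3 lower autophagy genes, 0 higher CDK inhibitors, 1 lower BTG, TOB and CCR4-NOT gene, 1 lower stress response gene, 7 higher immediate-early genes and 0 fibroblast markers in either direction. With a trend and robust variance there were 4 lower amino-acid sensing genes, 1 lower BTG, TOB and CCR4-NOT gene, 1 higher stress response gene and 6 higher immediate-early genes. Repeated quantile normalization gave 4 lower amino-acid sensing genes, 1 lower BTG, TOB and CCR4-NOT gene, 2 lower basal genes and 0 fibroblast markers in either direction. Leaving out dim genes gave 4 lower amino-acid sensing genes, 2 lower basal genes, 0 higher luminal markers and 0 higher fibroblast markers. Array weights gave 2 lower basal genes and 0 higher fibroblast markers. Of all genes, 2320 were higher and 2586 lower in the main fit. With all probe sets tested the counts were 1629 and 1886, and with a trend and robust variance 2616 and 2849. Repeated quantile normalization gave 2276 and 2789, and array weights 2585 and 2836. Leaving out dim genes gave 2482 and 2787 of 13591. The causes were not tested.

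With 1 array left out in turn, higher members numbered 1 to 2 and lower members 2, higher genes 1588 to 2668 and lower genes 1777 to 2881 of all genes. MDM2 ranged from -0.21 to -0.15 and ZMAT3 from 0.17 to 0.23. CDKN1A ranged from -0.0102 (without negative control replicate 1) to 0.11, and SESN2 from -0.0107 (without negative control replicate 3) to 0.21, both not called in any of these fits. Lists ranged as follows: p53-responsive genes 6 to 11 higher and 7 to 8 lower, p53 regulators 1 to 2 higher and 6 to 7 lower, amino-acid sensing 3 to 6 higher and 2 to 4 lower, autophagy 1 to 3 higher and 3 to 4 lower, CDK inhibitors 0 to 2 higher and 1 to 2 lower. BTG, TOB and CCR4-NOT genes had 2 higher and 1 to 2 lower, stress response genes 2 to 4 higher and 1 to 2 lower, immediate-early genes 7 to 18 higher, basal genes 2 to 3 higher and 1 to 2 lower, and fibroblast markers 0 to 1 in each direction. The paralog differences kept their sign, at -0.64 to -0.55 for the TP53INP pair and -0.51 to -0.29 for the sestrins.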
